A study of Mus musculus with 12 samples.

Results

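Loss of the endogenous microRNA miR-155 in mouse bone marrow cells transformed by Hoxa9 was examined by setting 3 arrays of miR-155 knockout cultures against 3 arrays of wild-type cultures, 6 of the 12 arrays of the series. All probe sets with a single gene symbol were described, 14996 of the 23332 in the deposited table, and the test was run over the 16015 that carry at least 1 symbol. Few genes differed: 3 rose and 2 fell past an adjusted p of 0.05, and the published targets of miR-155 stayed close to their wild-type levels.

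The cells were primary cultures of bone marrow progenitors from female C57B/6 mice, 12 weeks old and given 5-FU (5-fluorouracil, which kills cycling cells) before harvest. They were grown in DMEM containing fetal calf serum with the cytokines IL3, SCF and IL6, and every culture overexpressed HOXA9 from an MSCV retroviral construct. Knockout cultures came from miR-155 KO mice and carried the MIG vector. A further 3 arrays came from wild-type cells with Hoxa9 and added miR-155, here called added miR-155. The wild-type MIG cultures, the reference for both, came from WT mice and carried Hoxa9 and MIG. Each group comes from 3 experiments that the submitters call independent; nothing says whether the animals differed or were pooled, so p-values measure the spread between these cultures. Hoxa9 was driven by a retrovirus in all of these groups, so no untransduced progenitors enter the comparison, and the labels do not give the knockout allele.

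MicroRNAs are short RNAs that guide Argonaute proteins to messenger RNAs, mostly through pairing of the seed at their 5′ end with sites in the 3′ untranslated region, and lower the stability and translation of those messages. miR-155 is processed from the transcript of a noncoding host gene on mouse chromosome 16, is induced in activated immune cells, and is found at high levels in several leukaemias. Forced expression in mouse marrow causes a myeloproliferative disorder. Hoxa9 is a homeobox transcription factor that blocks the maturation of myeloid progenitors, and Meis1 is its DNA-binding partner.

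The RNA that the knockout removes is shown first, since the targets named below were published as carrying sites for it. Capitals mark the seed, bases 2 to 8, in the 2 mature arms, and both mature arms in the hairpin. The sequences are those of RefSeq on GRCm38.p6, where the hairpin lies on the plus strand at chr16:84714140-84714204, the 5p arm at chr16:84714143-84714165 and the 3p arm at chr16:84714182-84714202. Of 1738 mature mouse miRNAs in that table, 1 carries the seed of the 5p arm.
mmu-miR-155-5p: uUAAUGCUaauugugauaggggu
mmu-miR-155-3p: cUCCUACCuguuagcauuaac
mmu-miR-155 hairpin: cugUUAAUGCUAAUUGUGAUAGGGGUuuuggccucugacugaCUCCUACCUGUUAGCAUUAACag

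The array holds 0 probe sets named for miR-155 or its host gene, so the knockout itself could not be checked on these arrays. Hoxa9 measured 13.19, 13.22 and 13.21 on the log2 scale in knockout cells against 13.24, 13.23 and 13.29 in wild-type MIG cells, a difference of -0.04 ± 0.06 (± SE, 95% interval -0.18 to 0.09). Over these 6 arrays the granule genes of myeloid progenitors measured 13.3 to 13.4 (Mpo) and 13.6 to 13.7 (Elane), and the progenitor surface genes 9.25 to 9.92 (Kit) and 9.85 to 10.3 (Cd34). The T cell gene Cd3e (5.58 to 5.85) and the B cell gene Pax5 (5.71 to 6.09) lay below the array medians of 6.42 to 6.49. The stromal gene Col1a1 (6.44 to 6.57) lay near them. Some other genes of the lymphoid lists were high. Mean levels in knockout and wild-type MIG cells were 10.8 and 10.4 for Gzmb, and 8.66 and 8.87 for Il7r. Array intensities carry no count of molecules, and the number of arrays limits the precision.

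The knockout and wild-type transcriptomes were close to each other. Pearson correlations across probe sets were 0.994 to 0.995 between knockout and wild-type arrays, against 0.995 to 0.996 among the knockout arrays and 0.995 to 0.996 among the wild-type arrays. These are correlations across genes, which are not independent replicates. The typical probe set differed by 0.113 log2 units between a knockout and a wild-type array (mean over 9 pairs of the median absolute difference), against 0.107 between 2 knockout arrays and 0.102 between 2 wild-type arrays. Between group means, the median absolute difference was 0.07, the 95th percentile was 0.30 and the differences spanned -1.39 to 1.07. Only 10 of 16015 probe sets differed 2-fold or more and 121 differed 1.5-fold or more, so 99.2% lay under 1.5-fold. With added miR-155 against the same wild-type arrays, 116 differed 2-fold or more and 505 differed 1.5-fold or more.

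The test was limma's moderated test on the deposited log2 values, with p-values adjusted by Benjamini-Hochberg over the 16015 probe sets. It called 5 probe sets, 0.0312% of those tested, of which 3 were higher (0.0187%) and 2 lower (0.0125%) in knockout cells. At an unadjusted p under 0.05 there were 774 probe sets, 4.83% of those tested, against the 5% that such a p gives where nothing differs. Of these, 309 were higher (1.93%) and 465 lower (2.9%). The fit of all 12 arrays takes its spread from every group with more than 1 array. From the 6 knockout and wild-type arrays alone it called 11 probe sets, and 1422 (8.88%) had an unadjusted p under 0.05. The 5 calls were sensitive to single arrays: limma called 3 probe sets without knockout array 3 and 1 without wild-type array 1. It called 0 without knockout array 1 (493 at an unadjusted p under 0.05), knockout array 2 (773), wild-type array 2 (586) or wild-type array 3 (538).

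**Figure D1:**
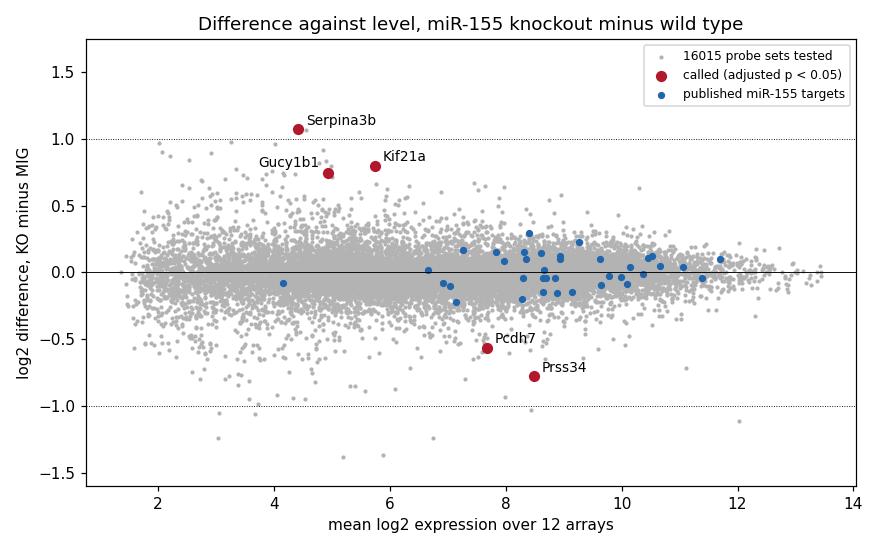
Log2 difference, knockout minus wild-type MIG (vertical axis), against the mean log2 level over 12 arrays (horizontal axis) for the 16015 probe sets tested, with the 5 called genes in red and the 37 measured targets of miR-155 in blue. The dotted lines mark a 2-fold difference either way. The called genes lie between -0.78 and 1.07, and the targets lie in the middle of the cloud, between -0.22 and 0.30.

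Gucy1b1 had the smallest p of all. It encodes the β1 subunit of soluble guanylate cyclase, the receptor for nitric oxide, which makes the second messenger cyclic GMP. Gucy1b1 measured 5.96, 6.02 and 5.86 in knockout cells, 5.18, 5.22 and 5.26 in wild-type cells with added miR-155, and 5.26, 5.17 and 5.17 in wild-type MIG cells. All 3 knockout arrays stood above all 6 wild-type arrays, whose values lay on top of each other. The wild-type MIG values were low, under the array medians of 6.42 to 6.49 and under those of Cd3e (5.58 to 5.85). Whether a fall with added miR-155 could be measured from such a level was not tested. Gucy1b1 rose by 0.75 ± 0.07 (log2 difference ± SE, n = 3 each; 1.68-fold; limma adjusted p = 0.00704) in the knockout, and its difference with added miR-155 was 0.02 ± 0.07 (adjusted p = 0.948).

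Gucy1a1 encodes the partner subunit α1, and its gene lies beside Gucy1b1 on chromosome 3 with 0 protein-coding genes between them. It measured 6.41, 6.53 and 6.40 in knockout cells against 5.94, 6.02 and 5.69 in wild-type MIG cells. The groups did not overlap, but the difference of 0.56 ± 0.14 had an adjusted p of 0.595. Among the 13 measured genes of nitric oxide and cyclic GMP signalling these were the 2 with an unadjusted p under 0.05. Both were higher, as were 1.93% of all probe sets at that p. The list median was -0.04, against -0.02 over all probe sets.

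Serpina3b, a clade A inhibitor of serine proteases, showed the largest difference of the genes called. It measured 5.74, 5.43 and 5.15 in knockout cells, 4.04, 4.28 and 4.21 with added miR-155, and 4.30, 4.36 and 4.45 in wild-type MIG cells. The knockout arrays were all higher, with a spread (SD 0.29) that was wider than that of the wild-type MIG arrays (SD 0.07). The levels of both groups were low, under the array medians of 6.42 to 6.49. Serpina3b rose by 1.07 ± 0.13 (2.10-fold, adjusted p = 0.0366). Its relatives on chromosome 12 gave other values, 0.08 ± 0.08 for Serpina3n and -0.11 ± 0.10 for Serpina3a.

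Kif21a, a kinesin motor that moves along microtubules, measured 6.87, 6.77 and 6.49 in knockout cells, 5.45, 5.57 and 5.63 with added miR-155, and 5.87, 5.89 and 5.97 in wild-type MIG cells. Kif21a rose by 0.80 ± 0.10 in the knockout (1.74-fold, adjusted p = 0.0366), with no overlap between arrays. It was the only called gene among the 27 kinesins measured (0.0312% of all probe sets were called), whose median difference was 0.03. The mitotic kinesins Kif20b (0.27 ± 0.11) and Kif2c (0.23 ± 0.09) also had an unadjusted p under 0.05. With Kif21a, 3 kinesins were higher and 0 lower at that p (1.93% and 2.9% of all probe sets).

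Prss34 fell. It encodes a secreted serine protease of mouse mast cells and basophils. Prss34 measured 9.23, 9.17 and 9.28 in knockout cells, 7.86, 8.05 and 7.75 with added miR-155, and 10.11, 9.92 and 9.99 in wild-type MIG cells. The knockout arrays lay below the wild-type MIG arrays and above those with added miR-155, with no overlap between any groups. Prss34 fell by 0.78 ± 0.09 on the log2 scale in the knockout (1.72-fold lower, adjusted p = 0.0318), and its difference with added miR-155 was -2.12 ± 0.09 (adjusted p = 4.35e-06). Both differences are against the same wild-type MIG arrays.

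Pcdh7, a protocadherin of the cell surface that mediates adhesion, measured 6.78, 6.87 and 6.88 in knockout cells, 8.29, 8.11 and 8.21 with added miR-155, and 7.42, 7.37 and 7.44 in wild-type MIG cells. Its 3 groups were separate, lowest in knockout cells and highest with added miR-155. Pcdh7 fell by 0.56 ± 0.07 on the log2 scale in the knockout (1.48-fold lower, adjusted p = 0.0366). The difference between added miR-155 and the knockout was 1.36 ± 0.07 (adjusted p = 3.02e-05). None of the other 8 measured protocadherins had an unadjusted p under 0.05.

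**Figure D2:**
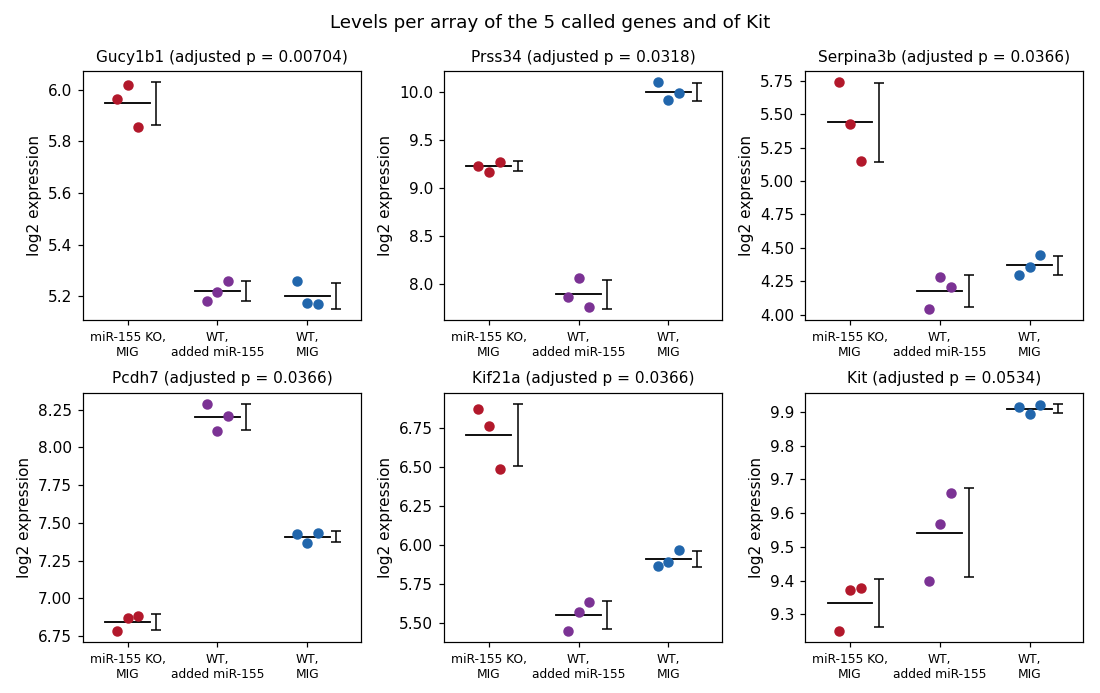
Log2 expression (vertical axis) of the 5 called genes and of Kit on each array of miR-155 knockout, added miR-155 and wild-type MIG cultures, with the group mean and SD. In all 6 panels the 3 knockout points are apart from the 3 wild-type MIG points, and Gucy1b1, Serpina3b and Kif21a are higher in the knockout.

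Kit was the gene next after these by adjusted p. It encodes the receptor for SCF, 1 of the 3 cytokines in the medium, and marks progenitors and mast cells. Kit measured 9.25, 9.37 and 9.38 in knockout cells, 9.40, 9.57 and 9.66 with added miR-155, and 9.91, 9.89 and 9.92 in wild-type MIG cells. The knockout arrays were all lower than the wild-type MIG arrays, by -0.58 ± 0.08, with an adjusted p of 0.0534 that missed the threshold and became 0.0458 in the fit of 6 arrays and 0.0455 over the probe sets with 1 symbol. The flippase gene Atp10d followed at 0.67 ± 0.09 (adjusted p = 0.0724), with 7.93 ± 0.06 in knockout cells against 7.26 ± 0.08 in wild-type MIG cells (mean ± SD, n = 3 each). The adenylate kinase gene Ak5 gave -0.47 ± 0.08 (adjusted p = 0.208).

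Kit is 1 of 19 measured receptors for cytokines and growth factors, of which 0 were called and 2 were lower at an unadjusted p under 0.05 (2.9% of all probe sets). The second was the TGF-β receptor gene Tgfbr2 (-0.19 ± 0.07), and the median of the list was -0.04. Meis1 is the partner of Hoxa9 and was not introduced into these cells. It measured 8.10, 8.03 and 7.95 in knockout cells against 7.57, 7.58 and 7.58 in wild-type MIG cells, a difference of 0.45 ± 0.10 without overlap but with an adjusted p of 0.552. The 23 measured stem and progenitor genes had a median difference of 0.02 and the 14 measured genes of the Hoxa cluster and its cofactors had one of -0.04, with 0 called in either list. Without overlap of the arrays, 7 of the 23 stem and progenitor genes were higher and 3 lower (5.91% and 8.91% of all probe sets).

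Genes most like each called gene were sought over the 9 arrays of knockout, added miR-155 and wild-type MIG cells, by Pearson's correlation. These values describe 3 groups of cultures and include the differences that chose the genes. Serpina3b and Kif21a were each other's nearest genes (r = 0.982), and Serpina3b was also close to the urea transporter gene Slc14a1 (0.968), to Meis1 (0.959) and to Gucy1b1 (0.958). The genes likest to Pcdh7 and to Prss34 were Tspyl4 (0.993) and Wdr41 (0.988). The casein gene Csn2 (0.979) ranked 5 for Pcdh7, and the eosinophil gene Prg2 (0.977) ranked 5 for Prss34.

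Markers of megakaryocytes and platelets were higher in knockout cells as a group, although none passed the adjusted threshold. Megakaryocytes are the marrow cells that shed platelets. Of 14 measured genes, 10 were higher and 0 lower at an unadjusted p under 0.05, where 1.93% of all probe sets were higher. The arrays did not overlap and were higher for 11 of the 14 (5.91% of all probe sets), and the median difference was 0.38 against -0.02 over all probe sets. The sum of the levels of the list on a linear scale was 9343 to 9913 on the knockout arrays, 6794 to 7338 on those with added miR-155, and 7621 to 7925 on the wild-type MIG arrays. The lists were made with earlier results of these data known. In these bulk cultures more cells of a type and more RNA per cell cannot be told apart.

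Among the receptors of the platelet surface, Gp5, a subunit of the complex that binds von Willebrand factor, measured 7.61, 7.34 and 7.50 in knockout cells against 6.84, 6.98 and 6.68 in wild-type MIG cells (0.65 ± 0.11, adjusted p = 0.196). Clec1b, the receptor for podoplanin, measured 6.79, 6.85 and 6.84 in knockout cells against 6.22, 6.39 and 6.00 in wild-type MIG cells (0.62 ± 0.10, adjusted p = 0.14). The 2 chains of the fibrinogen receptor shared a difference of similar size, 0.37 ± 0.09 for Itga2b and 0.36 ± 0.07 for Itgb3. The knockout arrays were higher without overlap for each of these 4 genes. Gp9, another subunit of the von Willebrand factor receptor, gave 0.46 ± 0.14, and Selp, the adhesion receptor P-selectin, gave 0.38 ± 0.13.

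Of the granule chemokines, Ppbp measured 11.22, 11.26 and 11.29 in knockout cells against 10.62, 10.74 and 10.51 in wild-type MIG cells. Its 2 groups were far apart relative to their own spread (SD 0.04 and 0.12), but the pooled fit gave 0.63 ± 0.26 and an adjusted p of 0.996, while the fit of the 9 arrays of knockout, added miR-155 and wild-type MIG cells gave an adjusted p of 0.0265. Pf4, the other chemokine, overlapped, at 9.58, 9.83 and 9.34 in knockout cells against 9.19, 9.35 and 9.08 in wild-type MIG cells. Alox12, the platelet lipoxygenase, is outside the list and gave 0.54 ± 0.09 (adjusted p = 0.208).

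The transcription factors of the lineage did not move alike. Gfi1b, a repressor required for megakaryocytes and red cells, gave 0.45 ± 0.12 and Nfe2 gave 0.12. Fli1, an activator of platelet genes, gave -0.04 ± 0.14. Gata1, which drives both lineages, measured 7.40, 7.38 and 7.44 in knockout cells against 7.19, 7.09 and 7.26 in wild-type MIG cells (0.23 ± 0.10), without overlap. The 9 measured erythroid genes had a median of 0.07, with 1 higher and 0 lower at an unadjusted p under 0.05 (1.93% and 2.9% of all probe sets).

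**Figure D3:**
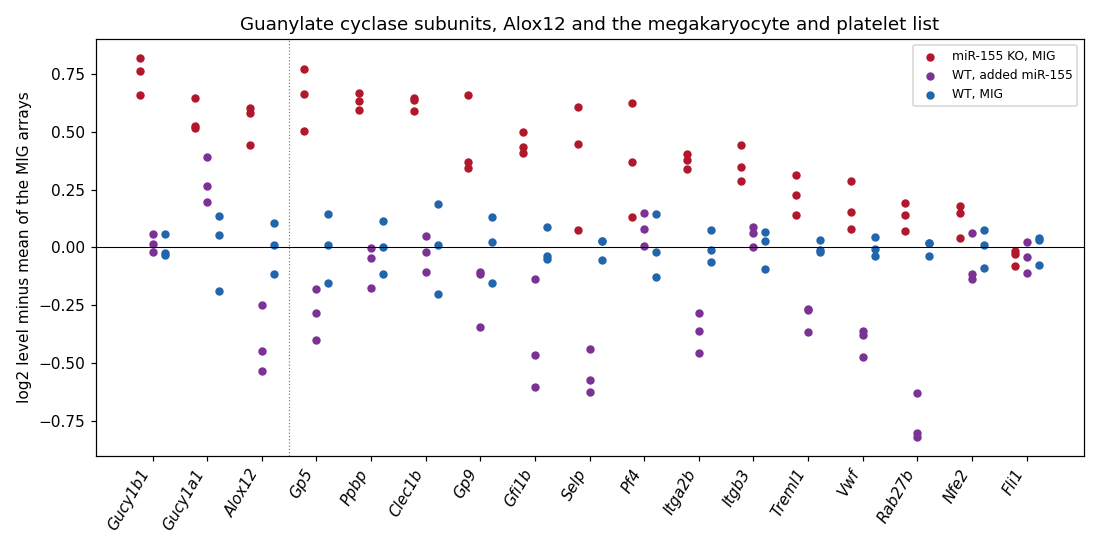
Log2 level minus the mean of the wild-type MIG arrays (vertical axis) on each array, for Gucy1b1, Gucy1a1 and Alox12 and, right of the dotted line, the 14 measured genes of the megakaryocyte and platelet list ordered by difference. The 3 knockout points lie above the 3 wild-type MIG points for most genes, while Pf4, Nfe2 and Fli1 overlap.

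GATA factors bind many genes of the megakaryocyte lineage. The promoters shown are those of Gp5, a member of the list, and of the called gene Gucy1b1, which is outside it. Capitals mark matches on either strand to AGATAA, to its variant AGATAG, and to the forms TGATAA or else TGATAG, which do not overlap here. Each window runs from 250 bases before to 50 bases after the RefSeq start on GRCm38.p6 and is written in the direction of the gene. The Gucy1b1 window is chr3:82074662-82074961 on the minus strand and that of Gp5 is chr16:30310732-30311031 on the minus strand.
Gucy1b1 promoter: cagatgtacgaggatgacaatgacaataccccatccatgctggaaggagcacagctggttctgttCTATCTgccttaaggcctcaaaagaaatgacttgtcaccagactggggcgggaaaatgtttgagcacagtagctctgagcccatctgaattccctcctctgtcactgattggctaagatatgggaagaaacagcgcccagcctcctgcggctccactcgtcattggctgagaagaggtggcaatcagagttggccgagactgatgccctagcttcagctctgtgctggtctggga
Gp5 promoter: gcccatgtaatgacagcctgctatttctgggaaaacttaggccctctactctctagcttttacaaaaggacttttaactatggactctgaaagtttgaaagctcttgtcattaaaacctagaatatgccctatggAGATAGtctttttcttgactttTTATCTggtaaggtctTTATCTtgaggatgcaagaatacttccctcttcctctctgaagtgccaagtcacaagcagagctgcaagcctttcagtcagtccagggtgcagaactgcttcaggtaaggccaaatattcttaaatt
The Gucy1b1 window holds 1 match and that of Gp5 holds 3. Gp5 has the most matches of the list, and Gp9, Itga2b, Ppbp, Selp and Treml1 have 0. Taking the first promoter of each gene, such a match occurs in 30.2% of 27025 promoters of this length and in 4 of the 9 genes of the list with a promoter in the table (44.4%), which is a description of letters and not of binding.

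Eosinophil genes were lower in knockout cells by median, again with none called. Eosinophils are granulocytes whose granules hold toxic cationic proteins. Of 9 measured genes, 4 were lower and 1 higher at an unadjusted p under 0.05 (2.9% and 1.93% of all probe sets), and the median difference was -0.49, or -0.25 over the members with a mean level of at least 6. The arrays did not overlap and were lower for 6 of the 9 (8.91% of all probe sets). The summed linear level of the list was 2448 to 2950 on the knockout arrays and 3384 to 4537 on the wild-type MIG arrays. The count of 4 rested in part on wild-type array 3, without which 1 gene was lower at an unadjusted p under 0.05.

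Epx, the eosinophil peroxidase, measured 8.96, 8.95 and 9.33 in knockout cells, 7.92, 8.13 and 7.89 with added miR-155, and 9.84, 10.06 and 10.42 in wild-type MIG cells. Its groups did not overlap, and the knockout difference was -1.03 ± 0.25 (adjusted p = 0.577). Prg2, the major basic protein of the granule, measured 10.17, 9.89 and 10.39 in knockout cells against 10.57, 10.75 and 11.07 in wild-type MIG cells (-0.65 ± 0.30). Its homologue Prg3 gave -0.49 ± 0.22, and the eotaxin receptor gene Ccr3 gave -0.67 ± 0.24. Ear6, a ribonuclease of the eosinophil granule with close relatives that may share its probes, measured 6.07, 5.99 and 4.97 in knockout cells against 7.01, 6.95 and 7.16 in wild-type MIG cells (-1.37 ± 0.53). The positive differences were those of Cebpe and Siglecf. Cebpe, a transcription factor of late granulocytes, gave 0.35 ± 0.15, and the surface lectin gene Siglecf gave 0.15 ± 0.08 with overlapping arrays.

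Of 17 measured mast cell and basophil genes, 1 was called (Prss34, against 0.0312% of all probe sets), 3 were lower and 1 higher at an unadjusted p under 0.05 (2.9% and 1.93% of all probe sets), and the median difference was -0.06. The 95% interval lay within ±0.5 for 7 of the 17 and within ±1 for all 17. Cpa3, a carboxypeptidase of mast cell granules, measured 12.87, 12.83 and 12.80 in knockout cells against 13.03, 12.81 and 12.79 in wild-type MIG cells. Mcpt8, a protease of basophils, measured 11.81, 11.55 and 11.62 in knockout cells against 11.78, 11.45 and 11.50 in wild-type MIG cells. Their 95% intervals were -0.26 to 0.17 and -0.17 to 0.33. The vesicular monoamine transporter Slc18a2 gave 0.29 ± 0.11 and the tryptase Tpsb2 gave -0.23 ± 0.08, each without overlap between groups. The summed linear level of the list was 21081 to 21541 on the knockout arrays and 21087 to 23849 on the wild-type MIG arrays.

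Genes of monocytes, granulocytes and lymphocytes made up most of the other marker lists, in which 0 members were called by limma (0.0312% of all probe sets). At an unadjusted p under 0.05, 1.93% of all probe sets were higher and 2.9% lower. For 19 genes of monocytes and macrophages the median was -0.09, and 1 gene, the fractalkine receptor Cx3cr1 (-0.35 ± 0.10), was lower at an unadjusted p under 0.05. The 11 primary granule genes had a median of 0.09 (1 higher, 0 lower), the 17 late granulocyte genes had a median of 0.02 (0 in either direction) and the 9 genes of MHC class II and dendritic cells had a median of -0.01 (0 in either direction). The 8 B cell genes had a median of -0.08 (1 lower), and the 10 genes of T and NK cells had a median of 0.03 (1 higher).

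**Figure D4:**
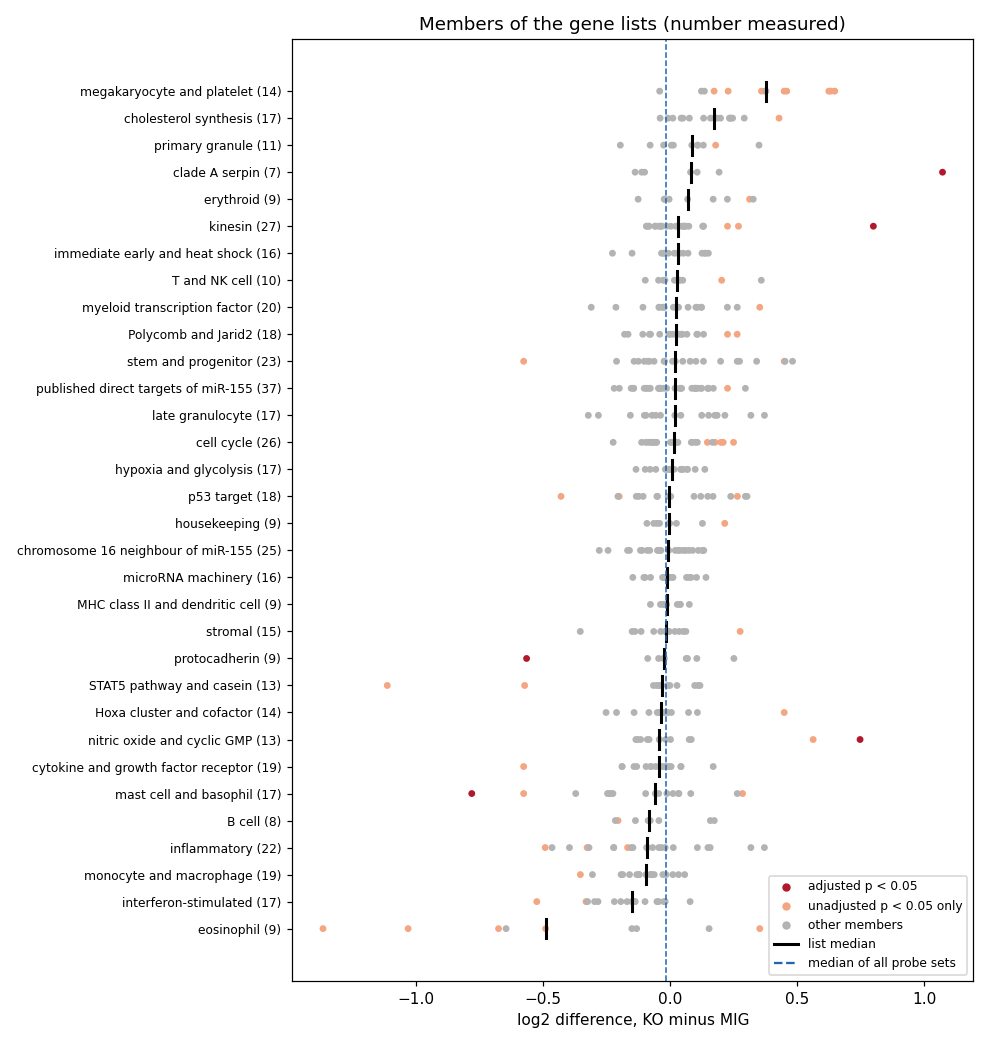
Log2 difference, knockout minus wild-type MIG (horizontal axis), of each measured member of the gene lists (rows, number measured in brackets), with the list median as a black bar and the median of all probe sets as a dashed line. The megakaryocyte and platelet list (median 0.38) and the eosinophil list (median -0.49) are at the ends, and most medians lie within 0.1 of 0.

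Published targets of miR-155 are the messages that its loss could release. Of 47 symbols listed, some of them older names of the same gene, 37 were measured. None was called by limma (0.0312% of all probe sets), and 1 was higher and 0 lower at an unadjusted p under 0.05 (1.93% and 2.9% of all probe sets). These counts by p do not set the targets apart from other probe sets. By arrays without overlap, 8 of the 37 were higher and 1 lower (5.91% and 8.91% of all probe sets). Of the 37 differences 19 were positive, with a median of 0.02 against -0.02 over all probe sets. The upper limit of the 95% interval lay under 0.5 for 33 of the 37 targets and under 0.25 for 22. A release larger than these limits was not supported for these genes. The upper limits were wider for Trp53inp1 (0.74), Satb1 (1.12), Fos (0.64) and Ets1 (0.53). The whole interval lay within ±0.5 for 30 of the 37 and for 82.9% of all probe sets, so this bound is not particular to the targets.

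Jarid2, a cofactor of the Polycomb repressor PRC2 and a target described in leukaemia, was the target higher at an unadjusted p under 0.05. It measured 9.64, 9.72 and 9.58 in knockout cells, 8.62, 8.66 and 8.69 with added miR-155, and 9.38, 9.46 and 9.42 in wild-type MIG cells. The 3 groups did not overlap, with the knockout highest and added miR-155 lowest. The knockout difference was 0.23 ± 0.06 (95% interval 0.08 to 0.37, adjusted p = 0.767), and the difference with added miR-155 was -0.76 ± 0.06 (adjusted p = 0.000324).

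The other targets that are often cited gave differences near 0. The heme-responsive repressor Bach1 differed by 0.02 ± 0.07, the inositol phosphatase Inpp5d (SHIP1) by 0.04 ± 0.06, the cytokine signalling inhibitor Socs1 by -0.04 ± 0.07, the myeloid transcription factor Spi1 (PU.1) by -0.04 ± 0.12 and Cebpb by -0.04 ± 0.10. The knockout arrays were higher without overlap for 8 targets (Jarid2, Rcor1, Myb, Trp53inp1, Tab2, Msh6, Cux1 and Satb1) and lower for 1, Tle4. Among all probe sets 5.91% were higher and 8.91% lower in this way.

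Of the 37 targets, 13 were lower with added miR-155 than in wild-type MIG cells at an adjusted p under 0.05 (2.68% of all probe sets), with a median of -0.51. Those comparisons share the wild-type MIG arrays. In the knockout, 7 of the 13 differences were positive and 6 negative, from -0.20 to 0.23 with a median of 0.02, and the upper limit of the 95% interval was under 0.5 for all 13.

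**Figure D5:**
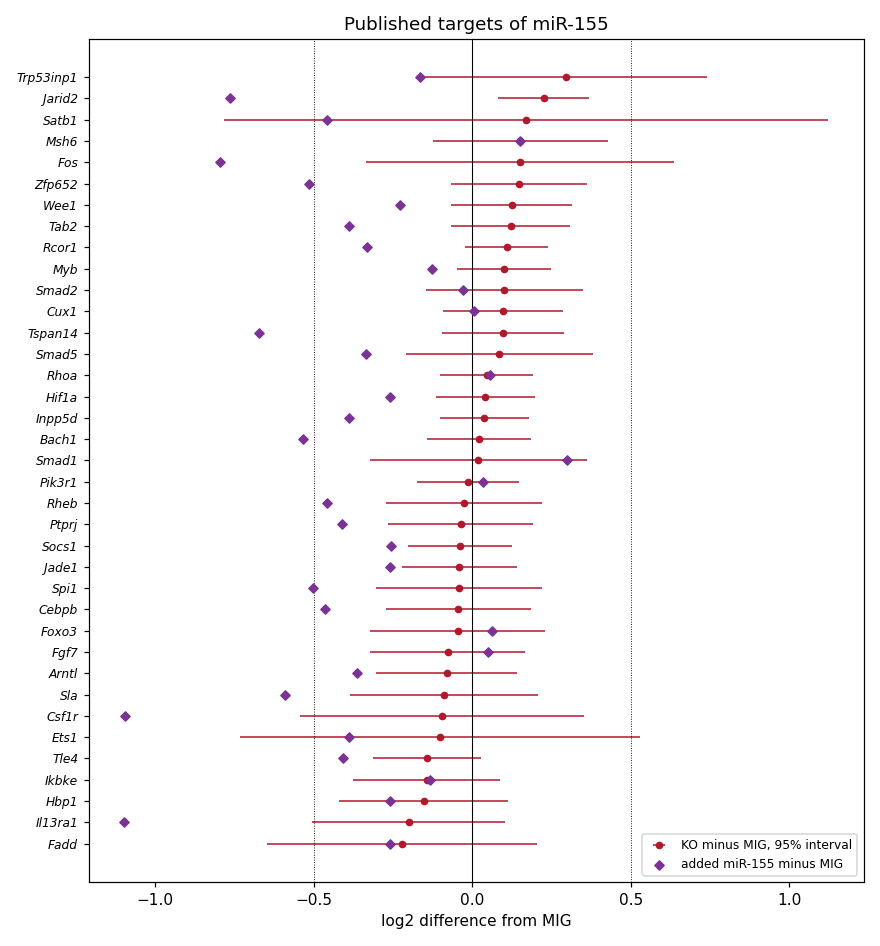
Log2 difference from wild-type MIG (horizontal axis) of the 37 measured targets of miR-155, ordered by their knockout difference, with red points and bars for the knockout and its 95% interval, and purple diamonds for added miR-155. The knockout points lie between -0.22 and 0.30, mostly within the dotted lines at -0.5 and 0.5, while many diamonds lie to the left of 0.

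STAT5 is a transcription factor activated by cytokine receptors, and its pathway was listed together with the casein genes. Of 13 measured members 0 were called. The casein genes Csn2 and Csn1s2a were the 2 with an unadjusted p under 0.05, both lower (2.9% of all probe sets). Csn2 encodes β-casein, a milk protein. It measured 10.82, 10.90 and 10.96 in knockout cells, 12.95, 13.04 and 12.97 with added miR-155, and 11.79, 12.06 and 12.18 in wild-type MIG cells. The 3 groups were in separate ranges, about 1 log2 unit apart. The knockout difference was -1.11 ± 0.20 (adjusted p = 0.269), which the fits of 6 and 9 arrays called. Csn1s2a, an αs2-casein gene, measured 3.95, 3.73 and 3.57 in knockout cells against 4.42, 4.38 and 4.16 in wild-type MIG cells (-0.57 ± 0.12), at the low end of the scale. The other 11 measured genes had an unadjusted p over 0.05, among them Jak2 (0.11 ± 0.08), Stat5a (0.12 ± 0.12) and another casein gene, Csn1s1 (-0.05 ± 0.27).

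Other large differences came from genes that did not pass the test in the fit of 12 arrays. The highest of these, under the rule for named genes, were Gcsam (0.96 ± 0.26) and Kcnj14 (0.82), and Gcsam lay at 4.82, 5.24 and 5.04 in knockout cells against 4.25, 4.47 and 3.50 in wild-type MIG cells. The lowest were the calpain gene Capn11 (-1.39 ± 0.28), the transcription elongation gene Supt4a (-1.24 ± 0.27), Csn2 and Epx. Capn11 measured 4.69, 4.46 and 4.41 in knockout cells against 5.84, 6.04 and 5.83 in wild-type MIG cells, without overlap (adjusted p = 0.388). Aldh1a3, an enzyme of retinoic acid synthesis, gave -0.93 ± 0.16 (adjusted p = 0.219), Ch25h, the cholesterol 25-hydroxylase, gave -0.89 ± 0.16, and the acid-sensing receptor gene Gpr65 gave -0.65 ± 0.14.

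Of 17 measured interferon-stimulated genes, 16 had negative differences, with a median of -0.15 against -0.02 over all probe sets. Only 2, Ifit2 (-0.52 ± 0.16) and Rsad2 (-0.33 ± 0.13), were lower at an unadjusted p under 0.05 (2.9% of all probe sets). The mean level of the list was 6.38, 6.57 and 6.34 on the knockout arrays against 6.58, 6.64 and 6.58 on the wild-type MIG arrays, so that knockout array 2 was nearly level with the wild-type MIG arrays. Of 22 inflammatory genes, 3 were lower at that p. The chemokine gene Ccl4 measured 6.79, 6.98 and 6.91 in knockout cells against 7.28, 7.42 and 7.45 in wild-type MIG cells (-0.49 ± 0.10), Ccl3 gave -0.33 ± 0.10 and the adhesion gene Icam1 gave -0.17 ± 0.07. The median of the inflammatory list was -0.09, and 0 members of either list were called. Without overlap of the arrays, 5 of the 17 interferon-stimulated genes were lower and 0 higher. For the 22 inflammatory genes these counts were 7 and 1, and for all probe sets the shares were 8.91% and 5.91%.

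Of 17 measured genes of cholesterol synthesis, 15 had positive differences, with a median of 0.17 against -0.02 over all probe sets. By limma 0 were called, and 1 was higher and 0 lower at an unadjusted p under 0.05 (1.93% and 2.9% of all probe sets). Hmgcs1, which makes the substrate of the rate-limiting step, measured 10.22, 10.21 and 10.06 in knockout cells against 9.99, 9.74 and 9.47 in wild-type MIG cells (0.43 ± 0.13). Wild-type array 3 was the lowest for this list, with a mean level of 9.12 against 9.48 and 9.45 on the other wild-type MIG arrays and 9.45 to 9.57 on the knockout arrays, and without it the median was 0.07.

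Since a p that misses the threshold does not show that a gene is unchanged, the size of change that the arrays leave room for was taken from limma's interval. The 95% interval of the difference lay within ±1, a 2-fold change, for 15587 of 16015 probe sets (97.3%) and within ±0.5 for 13271 (82.9%). Its half-width had a median of 0.22. Among the 9637 probe sets with a mean level of at least 6 these shares were 99.1% and 88.7%, and among the 6378 dimmer ones 94.6% and 74.0%. These intervals are per probe set and not adjusted for their number.

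All 26 measured cell cycle genes had an interval within ±0.5, with a median of 0.02 and 0 called. Within that bound, 5 were higher and 0 lower at an unadjusted p under 0.05, where 1.93% of all probe sets were higher and 2.9% lower. The largest of these was the mitotic kinase Cdk1, at 9.51, 9.55 and 9.44 in knockout cells against 9.29, 9.34 and 9.12 in wild-type MIG cells (0.25 ± 0.10). The proliferation marker Mki67 gave 0.21 ± 0.09 with overlapping arrays.

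All 16 measured genes of the microRNA machinery were also bounded within ±0.5, with a median of -0.01 and 0 at an unadjusted p under 0.05. Dicer1, which cuts hairpins to mature microRNAs, differed by 0.08 ± 0.08, its nuclear counterpart Drosha by 0.01 ± 0.06 and the Argonaute gene Ago2 by -0.03 ± 0.09. Of the 18 Polycomb genes, 17 were bounded within ±0.5. Beside Jarid2 the PRC2 cofactor Mtf2 (0.26 ± 0.11) was higher at an unadjusted p under 0.05 (1.93% of all probe sets). Of the 17 genes of hypoxia and glycolysis, 16 were bounded in the same way, and all 9 measured housekeeping genes were.

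The genes around the deleted locus gave small differences. Of the 10 nearest measured genes on each side of miR-155 on chromosome 16, 0 of 20 had an unadjusted p under 0.05, and their differences ran from -0.28 to 0.23 with a median of -0.01. Mrpl39, a mitochondrial ribosome gene of this neighbourhood, differed by -0.12 ± 0.07, and the junction gene Jam2 by 0.04 ± 0.08. Over the whole of chromosome 16, 19 of 476 probe sets (3.99%) had an unadjusted p under 0.05, against 4.83% of all tested.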

How the data were processed

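RNA from 12 cultures in 5 groups was hybridised to 1-colour Affymetrix arrays. The authors deposited log2 values. Affymetrix Expression Console and RMA are named in the submitters' processing notes, with the version of either not given in the sources used here. The RMA method normalizes arrays jointly, so an array's values depend on the others. Gene symbols came from the platform annotation supplied with the table: 14996 probe sets had 1 symbol, 1019 had several and 7317 had none.

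From these values limma 3.58.1 (R 4.3.3) fitted a mean per group to all 12 arrays (lmFit, eBayes), with the contrast of 3 knockout and 3 wild-type MIG arrays, Benjamini-Hochberg adjustment over 16015 probe sets and calls at an adjusted p under 0.05. Differences are in log2 units ± SE, and values per group are mean ± SD. Each gene of a list was represented by its probe set of highest mean level. No set test was run. Array-wide spread pools groups that vary unequally: the median SD between arrays was 0.0922 in knockout, 0.0890 in wild-type MIG and 0.129 in the MIY group, which enters the fit.

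Genes were named by rule: all called genes with 1 symbol, the 15 highest and 15 lowest differences at an unadjusted p under 0.01 without overlap between groups (predicted genes and olfactory receptors left out), up to 4 members of smallest p in each list, and 8 genes always. Other list members given as values, and genes called only in an alternative fit, were chosen after their values were seen. Members and lists were chosen with earlier results of these data known. On simulated data with 200 changed genes of 16015, the same fit recovered 52% at a log2 change of 0.5 and 93% at 1. Of its calls 7.64% were false, and 94.9% of the intervals of the unchanged genes covered the truth. An adjusted threshold is looser where more genes change, so these recovery shares do not carry over to the real arrays, where 5 probe sets were called. There Capn11 (-1.39) and Csn2 (-1.11) were not called. Alternatives changed the arrays fitted, the scaling, the probe sets tested, the variance model, the replicate block and each array left out. The MIY and Meis1 groups were not compared here.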

Additional observations from a re-analysis of the deposited data

Results flagged for a closer look

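The Y-linked gene Eif2s3y, a translation factor subunit, had a signal on 3 arrays outside the groups compared. The MIY arrays enter the knockout comparison only through its estimate of the spread. The Meis1 array, alone in its group, adds nothing to that estimate. All mice are labelled female. Eif2s3y measured 8.244 on the array with Meis1, 9.23 on MIY array 1 and 9.309 on MIY array 2. Its range was 2.31 to 2.45 over the 6 knockout and wild-type MIG arrays. The 3 arrays with the signal are in neither group compared here, and the fits of 6 and of 9 arrays leave them out.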

How the results depend on the processing

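Over 17 alternatives, 0 of the calls turned their direction, 14 of 2467 values of the named genes changed sign, all of them uncalled, and the 5 genes differed in how often they stayed called. Gucy1b1 was called in 10 of 16 alternatives that tested it, Prss34 in 8 of 17, Kif21a in 7 of 16, and Serpina3b and Pcdh7 in 6 of 16 and 6 of 17. The 5 calls became 11 in the fit of the 6 knockout and wild-type MIG arrays, 13 in the fit of 9 arrays that adds the miR-155 arrays, 3 after quantile normalization, 1 over all probe sets and 19 with array weights. Over probe sets with 1 symbol there were 6, the added one being Kit, and with each array shifted to a common median there were 4, of which 3 were higher and 1 lower. The probe sets at an unadjusted p under 0.05, 774 in the fit of 12 arrays, numbered 1422, 1313, 887, 1200 and 1824 in the same order, and 500 at a mean level of at least 6, where fewer were tested. Leaving out 1 array gave 0 to 3 calls and 493 to 852 probe sets at an unadjusted p under 0.05. The cause was not tested, except that a left-out array leaves fewer samples.

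Replicate numbers are shared by the groups, but the labels do not say that a number marks a shared experiment. Deviations from the group means correlated by 0.0548, 0.164 and 0.112 between knockout and wild-type MIG arrays of the same number. Between these groups each array correlated best with its own number, which is a hint from the data and not the design. Against the added miR-155 arrays this held for knockout array 2 (0.127) and wild-type MIG arrays 2 (0.128) and 3 (0.0623). Knockout array 1 (0.114) and wild-type MIG array 1 (0.0914) correlated best with array 3, and knockout array 3 with array 1 (0.0612). With the number as a replicate block, limma called 2 genes (Capn11 and Csn2) over 9 arrays, with 1536 probe sets at an unadjusted p under 0.05, and 0 over 6 arrays, with 1792.

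The median of the eosinophil list was -0.25 at a mean level of at least 6 and ran from -0.60 to -0.39 with 1 array left out. That of the megakaryocyte and platelet list ran from 0.31 to 0.39 with 1 array left out, lowest without knockout array 2, and its count at an unadjusted p under 0.05, tallied for every alternative after the data were seen, ran from 7 to 12. The share of intervals within ±1 ran from 88.8% to 99.3%, lowest over all probe sets. With 3 arrays a group, a difference under about 0.22, the median interval half-width, did not reach an unadjusted p of 0.05 for a typical gene. An adjusted p under 0.05 took a larger difference. Meis1, at 0.45 ± 0.10 with an SE near the median of 0.10, had a limma adjusted p of 0.552.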
